A study of Mus musculus with 46 samples.

Results

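Stromal cells were sorted from mouse kidneys as PDGFRB+ cells by flow cytometry, and kidneys in which an obstruction had been reversed were compared with kidneys that were obstructed. In unilateral ureteral obstruction (UUO) 1 ureter is tied. In reversed UUO (rUUO) the ureter was later reimplanted into the bladder, and the mice were culled 14 days after that second operation. The members were the 8 sorted samples labelled PDGFRB+ UUO 1 to 4 and PDGFRB+ RUUO 1, 2, 4 and 6, of 46 labelled samples in the whole series. 4 PDGFRB+ Sham samples from sham operated mice gave the reference level. All mice of these groups were labelled WT, and the study describes male C57BL/6 mice of 8 to 12 weeks. The design text gives 4 mice for each group, so the p-values below measure the spread between mice. It also describes obstruction for 2 days and for 7 days, and the labels of the UUO samples do not say which of these applies. No stromal samples from kidneys kept obstructed for as long as the rUUO mice lived were analysed here, so reversal and time since the first operation cannot be told apart.

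Kidney stromal cells include pericytes around capillaries, mesangial cells of the glomerulus, vascular smooth muscle cells and interstitial fibroblasts, and PDGFRB, a receptor for platelet-derived growth factor, is carried by most of them. After injury such cells proliferate, take on contractile features of myofibroblasts and secrete fibrillar collagen, which is trimmed, crosslinked and woven into a scar matrix with fibronectin, elastic fibres and proteoglycans. Whether a scar matrix is removed once the injury stops depends on the balance between its synthesis, its crosslinking and the proteases that degrade it.

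Expression was given as FPKM, fragments scaled to transcript length and to the mapped total of each sample, which allows levels of genes of different length to be set side by side. Differences are on the log2(FPKM + 1) scale, which understates the change of low genes, and rose and fell are used of genes with a limma adjusted p under 0.05. The FPKM sum was 586929 to 627012 in UUO and 597063 to 624662 in rUUO. Genes at 1 FPKM or more numbered 12322 to 12839 in UUO and 13339 to 13959 in rUUO. Relative depth, read from the smallest steps of low values, was 0.93 to 1.24 in UUO and 0.575 to 1.03 in rUUO. Genes of the mitochondrial genome took 23.9 ± 2.44% of all FPKM in UUO and 22.8 ± 2.35% in rUUO (SD, n = 4 each, exact two-sided permutation p = 0.6, smallest possible p = 0.0286), but 37.5 ± 5.55% in sham. In sham, that larger share lowers the FPKM of all other genes in proportion.

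The sort marker Pdgfrb was 92.9, 93, 174 and 108 FPKM in UUO samples 1 to 4 and 139.8, 129.9, 126 and 118 FPKM in rUUO samples 1, 2, 4 and 6, with 212 ± 43.5 FPKM (SD, n = 4) in sham. The difference between rUUO and UUO was 0.18 (standard error 0.21, limma adjusted p = 0.671). Decorin (Dcn), a small proteoglycan of fibroblasts, was at 1414 to 3838 FPKM in UUO and 2163 to 2643 FPKM in rUUO. Col1a2, the third marker given for these cells, is itself a gene of the scar and is described with the collagens. Together the 7 stromal markers came to 7211 to 12533 FPKM in UUO and 5405 to 7208 FPKM in rUUO. Summed over marker lists, the 10 proximal tubule markers came to 20.1 to 29.7 FPKM in UUO and 18 to 82.2 FPKM in rUUO, against 5448 to 6621 FPKM in sorted PT cells of sham kidneys. The 10 endothelial markers came to 45.7 to 68.6 FPKM in UUO and 70.2 to 132 FPKM in rUUO, against 3251 to 4040 FPKM in sorted endothelial cells, with no overlap between UUO and rUUO. The 12 leukocyte markers came to 41.5 to 110.2 and 52.2 to 99 FPKM, against 7423 to 10743 FPKM in sorted macrophages, and the 5 red blood cell genes to 11.8 to 62.3 and 3.57 to 13.5 FPKM. The 11 markers of other nephron segments came to 46.8 to 90.7 FPKM in UUO and 91.3 to 149.6 FPKM in rUUO, which do not overlap, and to 511 to 664 FPKM in sham. No marker of these lists was at 0 in all 8 samples. As the samples are bulk RNA of sorted cells, fewer cells of a type and less RNA per cell cannot be told apart.

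Of 14033 genes tested, 585 (4.17%) passed the threshold between rUUO and UUO, 414 (2.95%) of them higher and 171 (1.22%) lower in rUUO. The median difference of all genes was 0.19, and falls are to be read against this shift. With quantile normalisation, which brought this median to 0.03, 361 genes passed, 195 higher and 166 lower. The 12 lists of fibrotic genes held 328 tested genes of 357 listed. Of these, 45 fell (13.7%) and 17 rose (5.18%), and 266 did not pass. Groups that did not overlap, with rUUO lower, were found for 72 of the 328 genes and for 418 of all genes (2.98%), and with rUUO higher for 28 of the 328 and 1179 of all (8.40%). Left out singly, 5 of the 8 UUO and rUUO samples (UUO 1, rUUO 1, 2, 4 and 6) brought the count over all genes to between 289 and 333, UUO 2 brought it to 351 and UUO 4 to 407, while without UUO 3 it was 752. The fibrotic count was 33 without rUUO 6, 37 without UUO 1, 38 without rUUO 2, 39 without rUUO 1, 40 without UUO 2 or rUUO 4, and 76 without UUO 3.

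**Figure D1:**
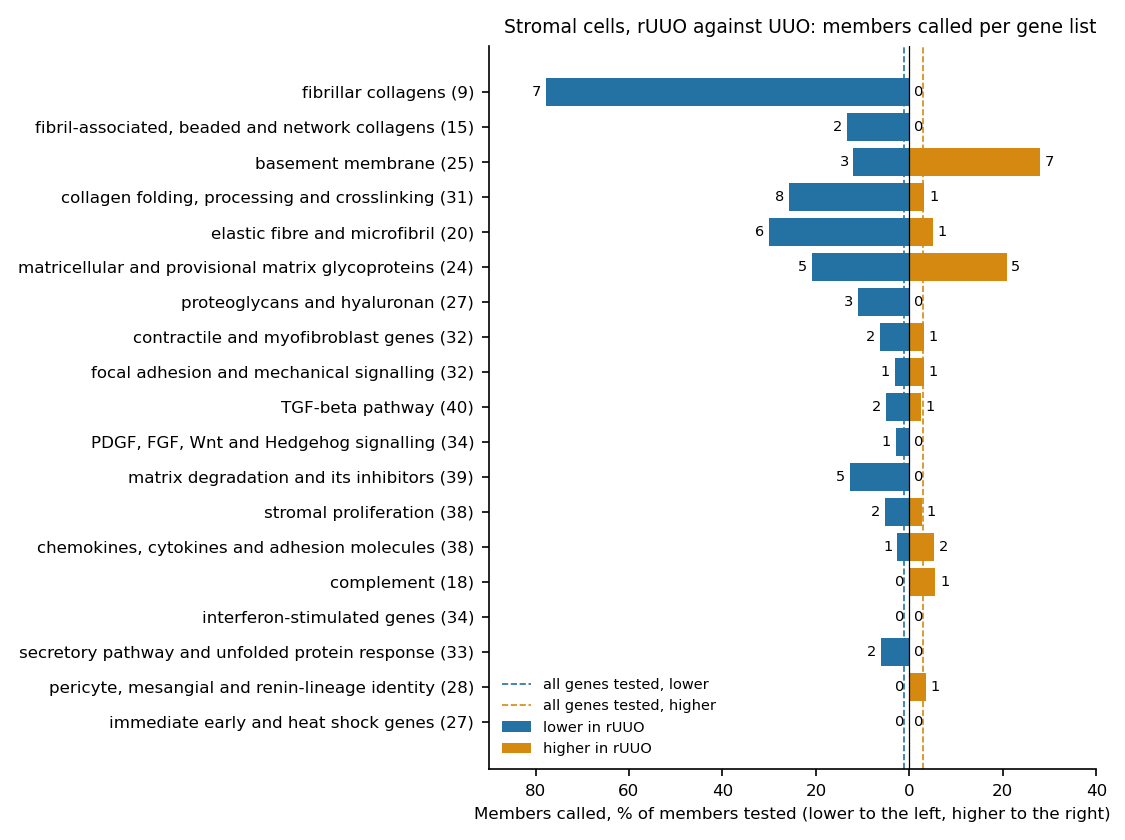
Each row is a gene list with its number of tested members in parentheses, and the bars give the percentage of these called lower (blue, to the left) and higher (orange, to the right) in rUUO than in UUO stromal cells, with the counts at their ends. Dashed lines mark the shares over all genes tested, 1.22% lower and 2.95% higher, and the longest bars are those of the fibrillar collagens to the left, with 7 of 9 lower, and of the basement membrane to the right, with 7 of 25 higher.

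Between UUO and sham 3704 genes passed (26.4%), 1881 higher (13.4%) and 1823 lower (13.0%), and between rUUO and sham 2407 (17.2%), 1626 higher (11.6%) and 781 lower (5.57%). Both comparisons share samples with that of rUUO and UUO, and their values are given beside it only to place the levels. The split also moved with the scaling. Rescaled without mitochondrial genes, 1548 genes were higher and 2433 lower in UUO than in sham, and 1038 were higher and 1045 lower in rUUO than in sham, where quantile normalisation gave 1209 and 1119. Of the 328 fibrotic genes, 186 were higher in UUO than in sham and 163 were higher in rUUO than in sham, 2 counts that do not say whether the genes are the same.

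Fibrillar collagens had the lowest median of the 12 fibrotic lists. Of 9 tested genes of 11 listed, 7 fell and none rose, and the median difference was −1.31 against 0.19 over all genes. The same list was 3.59 in the median between UUO and sham, with all 9 genes higher, and 2.17 between rUUO and sham, with 7 higher. Summed, these collagens took 0.208 ± 0.124% of all FPKM outside the mitochondrial genome in sham, 2.2 ± 0.371% in UUO and 0.885 ± 0.178% in rUUO (SD, n = 4 each). The UUO samples ranged from 1.67 to 2.53% and the rUUO samples from 0.707 to 1.13%, with no overlap. In place of 7, the number called was 4 without sham 2, UUO 1, UUO 2, UUO 4, rUUO 1, rUUO 4 or rUUO 6.

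Col1a1 (chromosome 11 from 94936224 to 94953042 on GRCm38), which encodes the α1 chain of type I collagen, was 3577, 2249, 1779.9 and 2447 FPKM in UUO samples 1 to 4 and 961, 1253, 962 and 809 FPKM in rUUO samples 1, 2, 4 and 6. Every rUUO sample was below every UUO sample and above every sham sample, which ranged from 97 to 354 FPKM. The mean was 2.52-fold lower in rUUO and the difference was −1.30 (standard error 0.33, limma adjusted p = 0.0378). Col1a2, the partner chain, was 3162, 3078, 2207 and 3035 FPKM in UUO samples 1 to 4 and 1244, 1685, 1243 and 1071 FPKM in rUUO samples 1, 2, 4 and 6. These groups did not overlap either, and UUO sample 3 was the lowest of its group. Its difference was −1.14 (standard error 0.30, limma adjusted p = 0.0481). Col3a1, the type III collagen of early scars and vessel walls, was 5259, 4102, 2964 and 4932 FPKM in UUO samples 1 to 4 and 1635, 2328, 1785 and 1236 FPKM in rUUO samples 1, 2, 4 and 6. The mean was 2.47-fold lower, with a difference of −1.31 (standard error 0.32, limma adjusted p = 0.036), and sham was at 428 ± 257 FPKM (SD, n = 4). These 3 calls were close to the threshold. Of the 12 fits that each left out 1 stromal sample, Col1a1 lost its call in 8 (adjusted p up to 0.106), Col1a2 in 9 (adjusted p up to 0.12) and Col3a1 in 7 (adjusted p up to 0.0995). Without sham 2, UUO 1, UUO 2, UUO 4, rUUO 1, rUUO 4 or rUUO 6, none of the 3 passed.

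The calls of the minor fibrillar chains held in more of the other fits. Col5a2 passed in 23 of 23 of them, Col24a1 in 22 of 22, Col5a1 in 22 and Col11a1 in 20, against 11 for Col1a1, 10 for Col1a2 and 13 for Col3a1. Type V collagen starts the assembly of type I fibrils, and its chain Col5a2 was 116, 127, 98.8 and 119.5 FPKM in UUO samples 1 to 4 and 38.9, 36.9, 39.99 and 38.3 FPKM in rUUO samples 1, 2, 4 and 6. The groups were clearly apart, and the difference of −1.55 (standard error 0.22, limma adjusted p = 0.00177) passed in every fit that left out a sample. Col5a1 differed by −1.42 (standard error 0.26, limma adjusted p = 0.00844). Col11a1, a chain of type XI collagen that is typical of cartilage and of activated fibroblasts, was 67.5, 65, 63.2 and 8.65 FPKM in UUO samples 1 to 4 and 8.13, 4.97, 5.89 and 6.85 FPKM in rUUO samples 1, 2, 4 and 6. UUO sample 4 lay far below the other UUO samples but still above the rUUO samples. The difference was −2.47 (standard error 0.50, limma adjusted p = 0.0134). Col24a1, a fibrillar collagen known from bone, was 4.06, 2.96, 1.14 and 4.69 FPKM in UUO samples 1 to 4 and 0, 0.02, 0.03 and 0 FPKM in rUUO samples 1, 2, 4 and 6, so that it was at or near 0 in every rUUO sample and no fold is given. Col5a3 and Col27a1 were the members that did not pass, with differences of −0.88 and −0.22 (limma adjusted p = 0.195 and 0.749).

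The stretches before the start sites of the fibrillar collagens are shown for 3 genes that fell and hold one of the motifs searched, to set the letters before their start sites side by side. The sequences are the 250 bases upstream of the RefSeq start on GRCm38.p6, written 5′ to 3′ on the gene's strand. Capitals mark a CCAAT pentamer, the letters bound by the factor NF-Y, on either strand (ATTGG on the reverse strand), or a TATAAA hexamer on the gene's strand. Both motifs, TGANTCA (the AP-1 letters, both strands) and the CArG box of serum response factor (both strands) were searched in 8 of the 11 collagens for which a promoter was at hand. The CArG box was searched only as the exact letters CCWWWWWWGG, where W is A or T.
Col1a2 (chr6:4505368-4505617, plus strand): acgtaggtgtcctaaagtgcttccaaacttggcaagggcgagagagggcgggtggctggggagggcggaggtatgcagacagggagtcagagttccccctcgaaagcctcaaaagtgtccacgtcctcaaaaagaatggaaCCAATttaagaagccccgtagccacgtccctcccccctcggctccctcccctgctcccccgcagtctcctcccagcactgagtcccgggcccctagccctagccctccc
Col11a1 (chr3:114030290-114030539, plus strand): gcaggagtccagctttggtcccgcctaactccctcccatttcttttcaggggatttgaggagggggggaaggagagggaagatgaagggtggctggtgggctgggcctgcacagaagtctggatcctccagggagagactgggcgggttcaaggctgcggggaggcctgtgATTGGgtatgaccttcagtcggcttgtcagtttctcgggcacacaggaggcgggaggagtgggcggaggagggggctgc
Col3a1 (chr1:45311288-45311537, plus strand): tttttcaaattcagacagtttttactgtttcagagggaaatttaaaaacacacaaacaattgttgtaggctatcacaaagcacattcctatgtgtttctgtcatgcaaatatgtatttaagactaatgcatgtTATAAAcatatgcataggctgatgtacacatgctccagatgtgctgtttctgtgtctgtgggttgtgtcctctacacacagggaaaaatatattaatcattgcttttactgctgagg
Col1a2 held CCAAT at position −109 and Col11a1 held its reverse at −79, counted from the start site. Col3a1 held TATAAA at −117. Col5a1 and Col24a1, which fell too, held none of the motifs, and nor did Col27a1, while Col5a3, which did not pass, held CCAAT at −122. Col11a2, which was too low to be tested, held TATAAA at −143. CCAAT is found in 33.8% of 32851 mouse promoters of this length and TATAAA in 7.59%, so these matches are a description of the letters and no more. TGANTCA, found in 6.75% of promoters, and the exact CArG letters, found in 1.47%, were absent from these windows and from that of Acta2. The Acta2 window holds ccctatatgg and ccttgtttgg, each a single letter off the CArG pattern. Near matches were not searched in the other windows.

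Enzymes and chaperones fold, trim and crosslink collagen before it can bear load. Of 31 tested members of 33 listed, 8 fell and 1 rose, and 29 had a negative difference, with a median of −0.59. Calls in this list numbered 4 without rUUO 6 and 5 without UUO 1 or UUO 4. Against sham, 27 were higher in UUO and 22 in rUUO. P4ha3, a catalytic subunit of the prolyl 4-hydroxylase that stabilises the collagen helix, was 35.1, 45.1, 62 and 21 FPKM in UUO samples 1 to 4 and 1.15, 3.32, 5.91 and 7.8 FPKM in rUUO samples 1, 2, 4 and 6. The mean was 8.98-fold lower in rUUO, with a difference of −3.00 (standard error 0.44, limma adjusted p = 0.00208), and sham was at 0 to 0.92 FPKM. Lysyl oxidase (Lox), which starts the covalent crosslinks between collagen and elastin molecules, was 579, 528, 222 and 518 FPKM in UUO samples 1 to 4 and 86.7, 80.8, 102 and 75.8 FPKM in rUUO samples 1, 2, 4 and 6. UUO sample 3 was below the other UUO samples, and the 4 rUUO samples lay close together. The mean was 5.35-fold lower, the difference was −2.32 (standard error 0.41, limma adjusted p = 0.00638) and all rUUO samples were above the sham samples, at 21.9 ± 17.8 FPKM (SD, n = 4).

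The other crosslinking and processing genes that fell were Loxl3, a relative of Lox (−1.07), the lysyl hydroxylases Plod2 (−1.05) and Plod3 (−1.23), the prolyl hydroxylases P4ha2 (−1.24) and P3h1 (−1.03), and Bmp1 (−1.07), the protease that cuts off the C-terminal propeptide. Of the 12 fits that each left out a sample, P4ha2 lost its call in 8 (adjusted p up to 0.11). Serpinh1, the collagen chaperone HSP47, was at 393 to 794 FPKM in UUO and 337 to 432 FPKM in rUUO, and its difference of −0.64 did not pass (limma adjusted p = 0.116). Loxl2, another crosslinking enzyme, was 111 to 167 and 87.6 to 99.2 FPKM, which do not overlap, but did not pass either (limma adjusted p = 0.121). The member that rose was P3h2, a prolyl 3-hydroxylase that acts on type IV collagen of basement membranes. It was 2.21, 3.03, 7.85 and 11.8 FPKM in UUO samples 1 to 4 and 26.4, 14.6, 17.7 and 25.1 FPKM in rUUO samples 1, 2, 4 and 6, with a difference of 1.79 (standard error 0.38, limma adjusted p = 0.0166). Sham was at 26 to 42.2 FPKM.

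**Figure D2:**
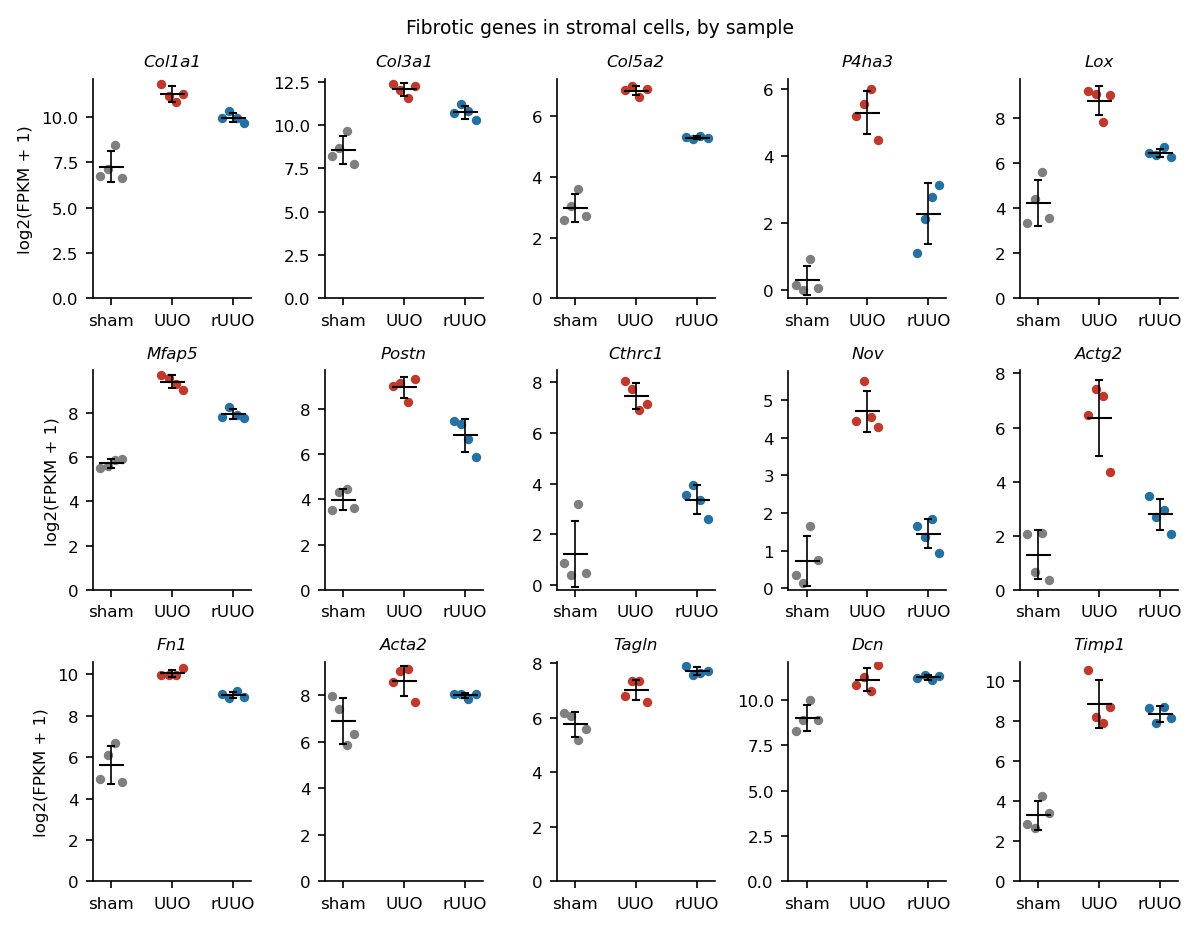
Each panel shows 1 gene on a linear axis of log2(FPKM + 1) for the 4 sham, 4 UUO and 4 rUUO stromal samples, with points for samples and a bar for mean ± SD. Col1a1 in the 4 rUUO samples sits at 809 to 1253 FPKM, below the UUO samples at 1779.9 to 3577 FPKM, and Cthrc1 drops furthest on this scale, while the panels of Acta2, Tagln, Dcn and Timp1 show genes whose difference did not pass.

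Other collagens coat the fibril or form beaded filaments and networks. Among 15 tested fibril-associated, beaded and network collagens of 22 listed, 2 fell, none rose, and the median was −0.53. In place of 2, calls numbered 1 without UUO 2, rUUO 2 or rUUO 6 and 4 without sham 3. Between rUUO and sham, 10 of them were higher in rUUO. Col6a3, a chain of the beaded type VI collagen, was 229.6, 368, 414 and 253 FPKM in UUO samples 1 to 4 and 142, 116, 126 and 122 FPKM in rUUO samples 1, 2, 4 and 6, with a difference of −1.28 (standard error 0.27, limma adjusted p = 0.018). Col8a1, a network collagen of vessels and wounds, was 114 to 239.6 FPKM in UUO and 60.4 to 89.5 FPKM in rUUO and differed by −1.19 (standard error 0.23, limma adjusted p = 0.0109). Col15a1 was at 398 to 597 FPKM in rUUO against 387 to 758 FPKM in UUO, with a sham mean of 60.1 FPKM, and its difference of 0.10 did not pass (limma adjusted p = 0.895).

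Basement membranes, the sheets on which epithelial and endothelial cells rest, are built of type IV collagen and laminin. Of 25 tested members of this list, 7 rose and 3 fell, and the median was 0.22. These counts were unstable, with 3 rises and 0 falls without rUUO 6, 3 rises and 1 fall without rUUO 2, 4 rises and 0 falls without rUUO 1, 5 rises and 0 falls without UUO 1, UUO 4 or rUUO 4 and 6 rises and 0 falls without UUO 2, and with 3 rises and 2 falls under quantile normalisation. Col4a3, which with Col4a4 and Col4a5 forms the type IV network of the mature glomerular basement membrane, was 1.85, 2.86, 9.09 and 1.8 FPKM in UUO samples 1 to 4 and 16.2, 18.7, 15.9 and 21.6 FPKM in rUUO samples 1, 2, 4 and 6. The rUUO samples were all above the UUO samples, with a difference of 2.18 (standard error 0.36, limma adjusted p = 0.00419), and sham was at 14.3 ± 3.31 FPKM (SD, n = 4). Col4a4 (1.5), Col4a6 (1.31) and Col4a5 (1.11) rose as well, as did the laminin chain Lama5 (1.58), agrin (Agrn, 1.19) and Smoc1, a SPARC-related glycoprotein (1.64). The ubiquitous chains Col4a1 and Col4a2 had differences of −0.47 and −0.45 that did not pass (limma adjusted p = 0.162 and 0.227).

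The 3 basement membrane members that fell were Lama4, a laminin chain of vessels (−1.36), Nid1, which links laminin to type IV collagen (−0.81), and Sparc, a collagen-binding glycoprotein (−0.89). Lama4 was 50.3, 65.1, 39.6 and 69.9 FPKM in UUO samples 1 to 4 and 24.8, 24.1, 12.9 and 23.9 FPKM in rUUO samples 1, 2, 4 and 6. The rUUO sample 4 was the lowest by a wide gap. Of the 12 fits that each left out a stromal sample, the call of Col4a5 was lost in 10 (adjusted p up to 0.109), that of Col4a6 in 4 (adjusted p up to 0.0744), that of Nid1 in 8 (adjusted p up to 0.0956), that of Lama5 in 8 (adjusted p up to 0.115), that of Lama4 in 7 (adjusted p up to 0.0969) and that of Sparc in 6 (adjusted p up to 0.0793). Beside the rises, the summed markers of other nephron segments were higher in rUUO as given above, and Slc12a1, the loop of Henle salt transporter, rose (1.54). The podocyte gene Nphs1 was at 0.58 to 6.66 FPKM in UUO and 1.23 to 4.03 FPKM in rUUO. The part of other cells in these rises was not tested.

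Elastic fibres are built of elastin on a scaffold of fibrillin microfibrils. Of 20 tested genes of this list, 6 fell and 1 rose, with a median of −0.46, and 16 were higher in rUUO than in sham. The 7 calls became 4 without UUO 2 or rUUO 6. Mfap5, a microfibril protein, was 821, 759, 619 and 518 FPKM in UUO samples 1 to 4 and 222, 306, 238 and 212 FPKM in rUUO samples 1, 2, 4 and 6. It fell by 1.46 on the log2 scale (standard error 0.18, limma adjusted p = 0.000666) and passed in every fit that left out a sample. Elastin (Eln) was 155, 294, 209 and 257 FPKM in UUO samples 1 to 4 and 77.8, 101, 69.6 and 89.2 FPKM in rUUO samples 1, 2, 4 and 6. The groups did not overlap, and the difference was −1.40 (standard error 0.20, limma adjusted p = 0.00178). Fibrillin 1 (Fbn1) was 401 to 475 FPKM in UUO and 141 to 161 FPKM in rUUO, a mean 2.85-fold lower, against 44.6 FPKM in sham. The remaining falls were Fbln2 (−2.03), Efemp2 (−1.25), both fibulins that join elastin to microfibrils, and Mfap4 (−1.14). Ltbp4, which binds latent TGF-beta and helps elastic fibre assembly, rose (1.05), but of the 12 fits that each left out a sample it lost this call in 11 (adjusted p up to 0.117), and Fbln2 in 7 (adjusted p up to 0.0897).

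Matricellular proteins sit in the matrix and act on cells without bearing load. Of 24 tested members of 28 listed, 5 fell and 5 rose. The falls ran from −1.99 to −4.10 and the rises from 0.62 to 1.71. The number called was 6 without rUUO 1. Cthrc1, a secreted protein of activated fibroblasts, was 265, 212, 119.7 and 142 FPKM in UUO samples 1 to 4 and 10.8, 14.5, 9.19 and 5.13 FPKM in rUUO samples 1, 2, 4 and 6. The mean was 18.6-fold lower in rUUO, with a difference of −4.10 (standard error 0.51, limma adjusted p = 0.000705) that was the largest fall of the tested fibrotic genes on the log2(FPKM + 1) scale. Sham samples 1, 2 and 4 were at 0.80 FPKM or less and sham sample 3 at 8.07 FPKM. Periostin (Postn), which binds collagen and promotes its crosslinking, was 514, 565, 314 and 640.3 FPKM in UUO samples 1 to 4 and 174, 158, 98.8 and 58.1 FPKM in rUUO samples 1, 2, 4 and 6. The fall of −2.12 (standard error 0.33, limma adjusted p = 0.0029) left rUUO above the sham mean of 15.5 ± 5.31 FPKM (SD, n = 4). Thbs4, a thrombospondin, fell by 1.99 on the log2 scale.

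The CCN family split. Nov (Ccn3) was 20.9, 44.5, 22.4 and 18.6 FPKM in UUO samples 1 to 4 and 2.17, 1.58, 2.55 and 0.93 FPKM in rUUO samples 1, 2, 4 and 6, with a difference of −3.25 (standard error 0.39, limma adjusted p = 0.000485). Wisp2 (Ccn5) was 26.6, 55.4, 20.4 and 29.5 FPKM in UUO samples 1 to 4 and 6.72, 6.72, 4.58 and 3.98 FPKM in rUUO samples 1, 2, 4 and 6, with a difference of −2.31 (standard error 0.34, limma adjusted p = 0.00212). Wisp2 in rUUO was also below sham, at 19.2 ± 8.43 FPKM, by 1.56 on the log2 scale (limma adjusted p = 0.00431). Ctgf (Ccn2), a widely used readout of TGF-beta and of mechanical load, was 156, 299, 236 and 148 FPKM in UUO samples 1 to 4 and 158, 172, 144 and 179.9 FPKM in rUUO samples 1, 2, 4 and 6, with a difference of −0.30 that did not pass (limma adjusted p = 0.501). It was lower in UUO than in sham, at 647 ± 174 FPKM, by 1.64 on the log2 scale (limma adjusted p = 7.64e-05).

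Fibronectin (Fn1), the main glycoprotein of provisional matrix, was 1005, 992, 1006 and 1275 FPKM in UUO samples 1 to 4 and 522, 457, 579 and 476 FPKM in rUUO samples 1, 2, 4 and 6. The groups did not overlap, yet the difference of −1.07 (standard error 0.32, limma adjusted p = 0.0742) did not pass. Fn1 was negative in all 23 other fits and passed in 2 of them, 1 of which left out a sample. The members that rose were nephronectin (Npnt, 1.71) and Egfl6 (1.41), both ligands of integrin α8β1, the integrin-binding proteins Tgfbi (1.30) and osteopontin (Spp1, 0.81), and Ecm1 (0.62). Npnt and Egfl6 had been lower in UUO than in sham (−2.70 and −1.75, limma adjusted p = 1.92e-05 and 0.00298). Tgfbi was higher in rUUO than in sham (1.61, limma adjusted p = 0.00333). Spp1 was at 653 to 1051 FPKM in UUO and 1151 to 1949 FPKM in rUUO, with 162 ± 14.8 FPKM (SD, n = 4) in sham. Of the 12 fits that each left out a sample, Egfl6 lost its call in 11 (adjusted p up to 0.133), Ecm1 in 5 (adjusted p up to 0.101) and Tgfbi in 8 (adjusted p up to 0.117). Tenascin C (Tnc) was 61.8 to 225 FPKM in UUO and 153 to 207 FPKM in rUUO, with overlapping groups and a difference of 0.82 (limma adjusted p = 0.181).

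Proteoglycans and hyaluronan fill and order the space between fibres. Of 27 tested members of 32 listed, 3 fell and none rose, with a median of −0.12. Has2, the main hyaluronan synthase of fibroblasts, was 13.1, 7.17, 6.35 and 7.46 FPKM in UUO samples 1 to 4 and 2.27, 0.95, 1.18 and 2.46 FPKM in rUUO samples 1, 2, 4 and 6 and fell by 1.80 on the log2 scale (limma adjusted p = 0.00964). Versican (Vcan), the large proteoglycan that binds hyaluronan, fell by 1.64 and biglycan (Bgn), a small collagen-binding proteoglycan, by 0.71 (limma adjusted p = 0.0252 and 0.0114). The call of Vcan was lost in 5 of the 12 fits that each left out a sample (limma adjusted p up to 0.0767). With quantile normalisation the difference of Bgn was −0.37 and did not pass (limma adjusted p = 0.27). Calls in the list rose to 6 without UUO 3. Dcn, a close relative of Bgn, was 1801, 2489, 1414 and 3838 FPKM in UUO samples 1 to 4 and 2374, 2643, 2163 and 2573 FPKM in rUUO samples 1, 2, 4 and 6, with overlapping groups and a difference of 0.13 (standard error 0.32, limma adjusted p = 0.86). Lumican (Lum) differed by −0.31 (limma adjusted p = 0.533). The summed share of this list was 1.91 ± 0.343% in UUO, 1.41 ± 0.0637% in rUUO and 0.606 ± 0.133% in sham (SD, n = 4 each).

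**Figure D3:**
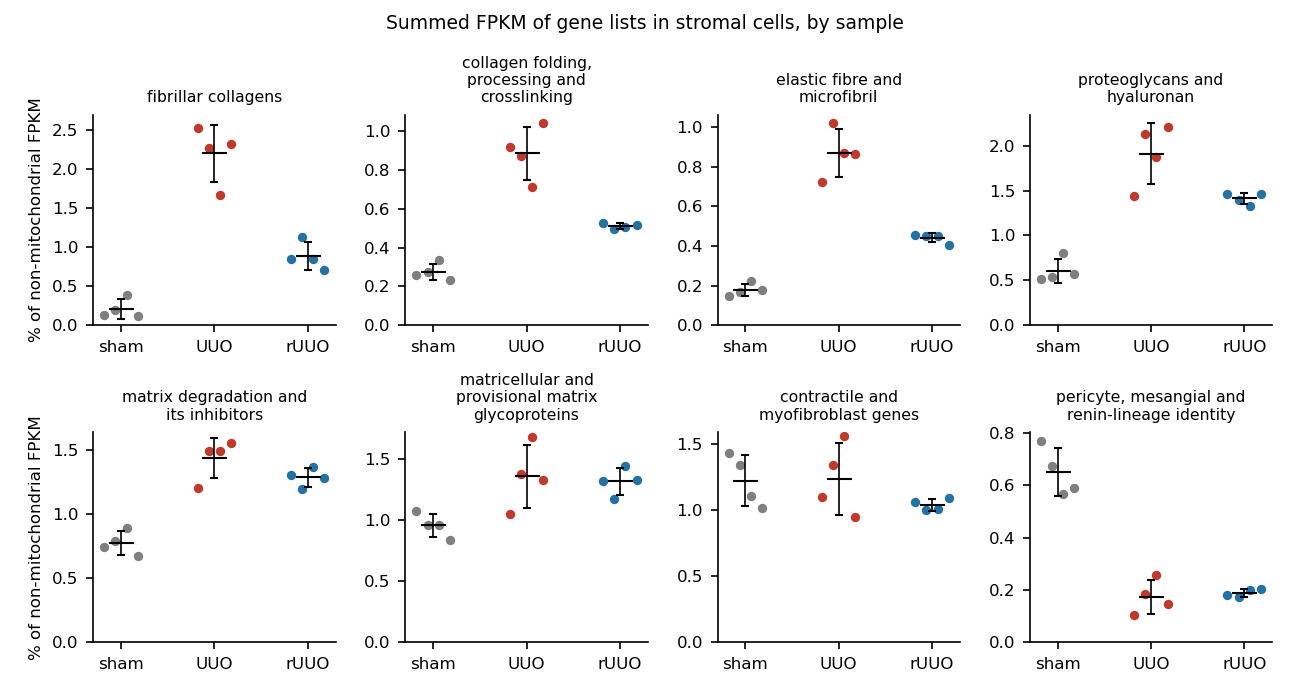
Each panel shows, for 1 gene list, the percentage of all FPKM outside the mitochondrial genome in the 4 sham, 4 UUO and 4 rUUO stromal samples, with points for samples and a bar for mean ± SD. The share of fibrillar collagens is 1.67 to 2.53% in UUO and 0.707 to 1.13% in rUUO, while the pericyte, mesangial and renin-lineage genes are at 0.172 to 0.204% in rUUO against 0.569 to 0.77% in sham.

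Contractile genes, by which myofibroblasts are usually recognised, held 3 changes. Of 32 tested members, 2 fell and 1 rose, with a median of −0.10, and the calls numbered 5 without sham 3 or UUO 3. The called share was 9.38%, against 4.17% of all genes. The usual marker, smooth muscle actin (Acta2), was 376, 518, 553 and 204 FPKM in UUO samples 1 to 4 and 264, 262, 226 and 266 FPKM in rUUO samples 1, 2, 4 and 6. UUO sample 4 lay below every rUUO sample and the other UUO samples above them, and the difference of −0.60 (standard error 0.39, limma adjusted p = 0.419) did not pass. Transgelin (Tagln) was 111, 159.8, 162 and 95.2 FPKM in UUO samples 1 to 4 and 239, 187, 199 and 207 FPKM in rUUO samples 1, 2, 4 and 6, with a difference of 0.69 (standard error 0.23, limma adjusted p = 0.107). Calponin (Cnn1) was lower in every rUUO sample, at 6.47 to 28.5 FPKM against 59.2 to 114 FPKM in UUO, but narrowly missed the threshold (limma adjusted p = 0.0513).

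By contrast γ-smooth muscle actin (Actg2), known best from the gut and bladder wall, was 86.7, 170.3, 143 and 19.6 FPKM in UUO samples 1 to 4 and 9.95, 5.45, 6.73 and 3.2 FPKM in rUUO samples 1, 2, 4 and 6. UUO sample 4 was again the lowest of its group and still above every rUUO sample. The mean was 16.6-fold lower and the difference was −3.56 (standard error 0.58, limma adjusted p = 0.00419). Tpm4, a tropomyosin of non-muscle actin filaments, fell by 0.69, a call that was lost in 7 of the 12 fits that each left out a sample. Sorbs2, an adaptor of stress fibres, was 12.5 to 29.5 FPKM in UUO and 59.6 to 118 FPKM in rUUO, and rose by 1.91 (standard error 0.27, limma adjusted p = 0.00178). It stayed below sham, at 175 to 296 FPKM, with a difference between rUUO and sham of −1.58 (limma adjusted p = 0.00073).

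Focal adhesion and mechanical signalling genes held 1 fall and 1 rise among 32 tested, with a median of 0.11. The called share was 6.25%, near the 4.17% of all genes. These 2 calls became 0 without UUO 1, rUUO 4 or rUUO 6 and 1 without sham 1, sham 2, sham 4, UUO 2, UUO 4, rUUO 1 or rUUO 2. Zyxin (Zyx), which is recruited to adhesions under tension, fell by 0.91 (limma adjusted p = 0.0412, lost in 10 of 12 fits that each left out a sample). Itga3, the α chain of a laminin-binding integrin, rose (1.45, limma adjusted p = 0.021). It was 24.2 to 39.3 FPKM in rUUO, still below sham, at 48.7 to 75.6 FPKM. The shared β1 chain Itgb1 was 159.9 to 241 FPKM in UUO and 171 to 222 FPKM in rUUO, and the αv chain Itgav was 38.3 to 56.3 and 45.1 to 60.5 FPKM. Neither passed, with differences of 0.01 and 0.20.

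Of 40 tested genes of the TGF-beta pathway, the best known inducer of matrix genes, 2 fell and 1 rose, and the number called was 6 without UUO 3. The called share was 7.5%, against 4.17% of all genes. The median was 0.08, and −0.03 with quantile normalisation. Among the ligands, Tgfb1 was 21.7, 48.1, 104 and 39.9 FPKM in UUO samples 1 to 4 and 60.5, 52.9, 65.7 and 78.6 FPKM in rUUO samples 1, 2, 4 and 6. The difference of 0.47 (standard error 0.33, limma adjusted p = 0.464) did not pass. Bmp2, a ligand of the bone morphogenetic branch, was 0.12, 0.57, 1.64 and 1.57 FPKM in UUO samples 1 to 4 and 8.24, 4.44, 5.95 and 8.47 FPKM in rUUO samples 1, 2, 4 and 6. It rose by 2.03 (standard error 0.35, limma adjusted p = 0.00537). Sham was at 3.95 to 6.54 FPKM, which overlaps rUUO. Inhba, the activin A chain, was 47.1 to 193 FPKM in UUO and 37.8 to 46 FPKM in rUUO, without overlap, and did not pass (limma adjusted p = 0.153).

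Fstl1, a secreted follistatin-like protein, was 1147, 1366, 1108 and 1002 FPKM in UUO samples 1 to 4 and 547, 511, 598 and 554 FPKM in rUUO samples 1, 2, 4 and 6. The fall of −1.06 (standard error 0.16, limma adjusted p = 0.00265) held in every fit that left out a sample. Lrrc32, which tethers latent TGF-beta to the cell surface, fell by 0.92. The receptor Tgfbr1 (−0.23) and the inhibitory target Smad7 (0.25) did not pass (limma adjusted p = 0.544 and 0.708). Of the 40 genes, 17 were higher in rUUO than in sham and 16 in UUO than in sham.

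Among 34 tested genes of PDGF, FGF, Wnt and Hedgehog signalling, Sfrp1 was the member that passed. This is 2.94% of the list, near the 4.17% of all genes, so nothing is read from the count. The number that passed was 2 without UUO 2 and 3 without UUO 3. Sfrp1, a secreted Wnt antagonist, was 809, 1062, 499 and 672 FPKM in UUO samples 1 to 4 and 249, 159.9, 243 and 172 FPKM in rUUO samples 1, 2, 4 and 6. It fell by 1.85 on the log2 scale (limma adjusted p = 0.00212), with no overlap. The PDGF receptor Pdgfra (0.05), the Hedgehog target Gli1 (−0.13) and Wnt4 (0.48) did not pass. The list's median was 0.04 and turned to −0.06 with quantile normalisation and to −0.01 without mitochondrial genes.

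Of 39 tested genes of matrix degradation and its inhibitors, 5 fell and none rose, and the 5 were all of the ADAM and ADAMTS families. Fewer passed when 1 sample was left out, 2 without sham 1, sham 2, UUO 1, UUO 2, rUUO 1, rUUO 2 or rUUO 4 and 3 without sham 4 or rUUO 6. Adam12, a membrane protease of activated mesenchyme, was 101, 113, 87.1 and 79.7 FPKM in UUO samples 1 to 4 and 44.7, 29.5, 30.4 and 25.1 FPKM in rUUO samples 1, 2, 4 and 6, with a difference of −1.54 (standard error 0.20, limma adjusted p = 0.00111). Adam19 (−1.33), Adamts12 (−1.10), Adamts5 (−1.04) and Adam9 (−0.78) also fell. Adamts5, which cleaves aggrecan and versican, was at 186 ± 33.1 FPKM in sham, and so was lower in rUUO than in either other group. Of the 12 fits that each left out a sample, Adamts12 lost its call in 10 (adjusted p up to 0.125), Adamts5 in 11 (adjusted p up to 0.124) and Adam9 in 11 (adjusted p up to 0.126).

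No matrix metalloproteinase and no TIMP passed. Timp1, the inhibitor most often measured in fibrosis, was 1492, 295, 242 and 421 FPKM in UUO samples 1 to 4 and 406, 236, 419.7 and 284 FPKM in rUUO samples 1, 2, 4 and 6. UUO sample 1 was far above the others, the groups overlapped, and the difference was −0.49 (standard error 0.47, limma adjusted p = 0.593), or 0.07 without that sample. All 8 values were well above sham, at 5.25 to 18 FPKM. Mmp2, a gelatinase, was 275, 307, 332 and 369 FPKM in UUO samples 1 to 4 and 369.5, 398, 374 and 298 FPKM in rUUO samples 1, 2, 4 and 6, with a difference of 0.17 (standard error 0.17, limma adjusted p = 0.618). Mmp14, the membrane-bound activator of Mmp2, was 293 to 509 FPKM in UUO and 227 to 277 FPKM in rUUO and missed the threshold (limma adjusted p = 0.0569). Timp2 and the plasminogen activator Plat differed by 0.35 and 0.31 (limma adjusted p = 0.317 and 0.421).

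The proliferation list had a median of −0.77 over 38 tested genes, with 30 of them negative, but 2 genes fell and 1 rose (calls numbered 5 without UUO 4). The called share was 7.89%, against 4.17% of all genes. Ccnb2, a mitotic cyclin, was 37.2, 4.72, 6.89 and 17.5 FPKM in UUO samples 1 to 4 and 1.1, 1.74, 2.55 and 1.13 FPKM in rUUO samples 1, 2, 4 and 6. The UUO samples spread widely and the rUUO samples lay below all of them, with a difference of −2.38 (standard error 0.49, limma adjusted p = 0.0145). Cdc20, an activator of the anaphase-promoting complex, was 16.9, 5.18, 2.76 and 12.3 FPKM in UUO samples 1 to 4 and 1.28, 0.87, 2.29 and 0.38 FPKM in rUUO samples 1, 2, 4 and 6, with a difference of −2.04 (standard error 0.47, limma adjusted p = 0.0267). The call of Cdc20 was lost in 5 of the 12 fits that each left out a sample (limma adjusted p up to 0.0821). The proliferation antigen Mki67 was 6.34 to 25.6 FPKM in UUO and 3.69 to 5.44 FPKM in rUUO, without overlap, and did not pass (limma adjusted p = 0.163). Cyclin D1 (Ccnd1), which drives entry from G1, went the other way. It was 9.24, 13.6, 10.9 and 10.2 FPKM in UUO samples 1 to 4 and 28.6, 26.3, 21.2 and 27.7 FPKM in rUUO samples 1, 2, 4 and 6 and rose by 1.18 (standard error 0.19, limma adjusted p = 0.00421). Ccnd1 was at 40 to 53.3 FPKM in sham, above both groups. Its differences from sham were −2.04 in UUO and −0.87 in rUUO (limma adjusted p = 1.71e-06 and 0.0052). Against sham, 20 of the 38 genes were higher in UUO and 1 in rUUO.

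Stromal cells also signal to leukocytes. Of 38 tested chemokines, cytokines and adhesion molecules, 2 rose and 1 fell, a called share of 7.89%, against 4.17% of all genes. These 3 calls became 0 without UUO 1, 1 without UUO 4, rUUO 1, rUUO 4 or rUUO 6 and 6 without UUO 3. Saa3, an acute-phase protein that stromal cells make under cytokine stimulation, was 139, 16.4, 8.74 and 143 FPKM in UUO samples 1 to 4 and 4.06, 2.94, 1.07 and 0.76 FPKM in rUUO samples 1, 2, 4 and 6. The fall of −3.88 (standard error 0.85, limma adjusted p = 0.0202) placed it in the sham range of 0 to 5.95 FPKM. Il34, a ligand of the macrophage receptor CSF1R, was 3, 9.44, 33.8 and 6.8 FPKM in UUO samples 1 to 4 and 64, 52.4, 31.4 and 43.8 FPKM in rUUO samples 1, 2, 4 and 6. UUO sample 3 lay inside the rUUO range, and the difference was 2.20 (standard error 0.48, limma adjusted p = 0.0195). Vcam1, an adhesion receptor for leukocytes, rose by 0.85 (limma adjusted p = 0.0484, lost in 10 of 12 fits that each left out a sample). The chemokine Ccl2 differed by 0.36 and the alarmin Il33 by −0.32. Both were higher in rUUO than in sham, by 2.84 and 3.49 on the log2 scale (limma adjusted p = 5.19e-05 and 6.2e-08).

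C3, the central component of complement, was 158 to 2715 FPKM in UUO and 385 to 1011 FPKM in rUUO, with a difference of 0.03 (limma adjusted p = 0.99). By limma 0 of 34 interferon-stimulated genes passed, against 4.17% of all genes, and 3 had an unadjusted p under 0.05, as had 19.8% of all genes. Likewise 0 of 27 immediate early and heat shock genes passed, with 3 at an unadjusted p under 0.05, and 18 of these 27 were higher in rUUO than in sham. With lists of this size, 0 calls is near the share over all genes. Fos, an early response factor, was 87.7 to 191 FPKM in UUO and 80.6 to 219 FPKM in rUUO.

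The secretory pathway carries procollagen out of the cell. Of 33 tested genes 2 fell and none rose, a called share of 6.06% that is near the 4.17% of all genes. Against sham, 21 were higher in rUUO and 22 were higher in UUO. Kdelr2, which returns chaperones to the endoplasmic reticulum, was 344, 269, 250.4 and 317 FPKM in UUO samples 1 to 4 and 176, 176, 165 and 186 FPKM in rUUO samples 1, 2, 4 and 6 and fell by 0.73 (limma adjusted p = 0.0116). Surf4, a cargo receptor, fell by 0.69 (limma adjusted p = 0.0457, lost in 9 of 12 fits that each left out a sample). The chaperone Hspa5 was 297 to 465 FPKM in UUO and 201 to 384 FPKM in rUUO.

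Pericytes, mesangial cells and renin cells are among the stromal cells of the uninjured kidney. Of 28 tested pericyte, mesangial and renin-lineage genes, 1 rose and none fell, a called share of 3.57% that is near the 4.17% of all genes. Against sham, 14 were lower in rUUO and 12 were lower in UUO. Ptn, a heparin-binding growth factor, was the gene that rose, and the number called was 2 without sham 3 or UUO 2 and 5 without UUO 3. Ptn was 31.5, 56, 138 and 79 FPKM in UUO samples 1 to 4 and 161, 258, 338 and 347 FPKM in rUUO samples 1, 2, 4 and 6, with a difference of 1.98 (standard error 0.35, limma adjusted p = 0.00647), and reached part of the sham level of 957 ± 144 FPKM (SD, n = 4). Gata3, a transcription factor of mesangial cells, was 0.56, 1.9, 0.66 and 0.85 FPKM in UUO samples 1 to 4 and 0.96, 3.12, 1.7 and 2.1 FPKM in rUUO samples 1, 2, 4 and 6. Sham was at 108 ± 15.9 FPKM and the difference between rUUO and UUO was 0.57 (limma adjusted p = 0.295).

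Renin (Ren1) was 4.94 to 23.5 FPKM in UUO and 0.96 to 4.69 FPKM in rUUO, against 19.4 to 218 FPKM in sham. The angiotensin receptor Agtr1a was 8.05 to 34.4 and 20.7 to 34.5 FPKM, against 261 to 342 FPKM in sham. Neither differed between rUUO and UUO past the threshold (limma adjusted p = 0.218 and 0.454), and both were lower in rUUO than in sham (limma adjusted p = 8.61e-05 and 3.39e-06). Rgs5, a pericyte marker, was 143 to 318 FPKM in UUO and 72.6 to 131 FPKM in rUUO, without overlap, and missed the threshold (limma adjusted p = 0.0521). The summed share of the list was 0.651 ± 0.0913% in sham, 0.172 ± 0.0647% in UUO and 0.189 ± 0.0163% in rUUO (SD, n = 4 each).

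Over all tested genes whose groups did not overlap, predicted genes left out, the 5 with the largest falls on the log2(FPKM + 1) scale were H19, Cthrc1, Saa3, Actg2 and Nov, of which 4 have been described. H19 (chromosome 7 from 142575529 to 142578143 on GRCm38), an imprinted non-coding RNA of fetal tissue, was 581, 666, 296 and 258 FPKM in UUO samples 1 to 4 and 26.4, 10.5, 18.6 and 2.16 FPKM in rUUO samples 1, 2, 4 and 6. The mean was 31.2-fold lower in rUUO and close to the sham values of 1.07 to 13.3 FPKM. The difference was −5.13 (standard error 0.64, limma adjusted p = 0.000705).

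The 5 largest rises by the same rule were Igfbp2, Cst12, Cyp2e1, Clic5 and Sema3g. Igfbp2, a binding protein of insulin-like growth factors, was 2.2, 5.7, 6.68 and 7.38 FPKM in UUO samples 1 to 4 and 97.9, 80.5, 60.6 and 87.3 FPKM in rUUO samples 1, 2, 4 and 6. It was 14.9-fold higher in rUUO and also stood above sham, at 3.37 to 12.4 FPKM, with a difference between rUUO and UUO of 3.74 (standard error 0.38, limma adjusted p = 0.000146). Cst12, a cystatin, was 0, 0, 0 and 0 FPKM in UUO samples 1 to 4 and 8.05, 3.78, 8.55 and 18.7 FPKM in rUUO samples 1, 2, 4 and 6. As it was listed at 0 in every UUO sample no fold is given, and the difference was 3.25 (standard error 0.38, limma adjusted p = 0.000422). Sham was at 4.64 to 7.92 FPKM, within the rUUO range. The next 3 rose from low levels in UUO, and for each the groups were far apart. Cyp2e1, a cytochrome P450, was 1.7, 1.48, 1.49 and 1.34 FPKM in UUO samples 1 to 4 and 22.4, 18.2, 25 and 22.7 FPKM in rUUO samples 1, 2, 4 and 6, with a difference of 3.20 (standard error 0.31, limma adjusted p = 0.000138). Clic5, an intracellular chloride channel protein found in podocyte foot processes, was 1.26, 2.41, 2.79 and 0.82 FPKM in UUO samples 1 to 4 and 40.7, 23.4, 13.8 and 19.3 FPKM in rUUO samples 1, 2, 4 and 6, with a difference of 3.12 (standard error 0.34, limma adjusted p = 0.000212) and a sham range of 14.4 to 24.7 FPKM. Sema3g, a secreted semaphorin, was 1.16, 1.4, 2.99 and 0.64 FPKM in UUO samples 1 to 4 and 17.4, 18.1, 17.1 and 18.2 FPKM in rUUO samples 1, 2, 4 and 6, with a difference of 2.96 (standard error 0.43, limma adjusted p = 0.00212). Sham was at 10.6 to 38.4 FPKM for Cyp2e1, overlapping rUUO, and at 2.02 to 14.6 FPKM for Sema3g, below rUUO. The difference of Sema3g between rUUO and sham did not pass (limma adjusted p = 0.117).

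Among the markers of other cells, Slc12a1 was 1.09, 3.21, 2.48 and 2.52 FPKM in UUO samples 1 to 4 and 10.5, 6.8, 5.54 and 12.2 FPKM in rUUO samples 1, 2, 4 and 6 and Cdh16, kidney-specific cadherin, was 4.3, 18.3, 13.8 and 6.22 FPKM in UUO samples 1 to 4 and 22.9, 21.4, 21.4 and 39 FPKM in rUUO samples 1, 2, 4 and 6. Both rose (1.54 and 1.36), with the call of Cdh16 lost in 9 of the 12 fits that each left out a sample, and both were below sham, at 42.3 to 73 and 66.2 to 82.8 FPKM. The other 9 nephron markers did not pass. Emcn, an endothelial sialomucin, rose by 1.18 (limma adjusted p = 0.0408) with overlapping groups, a call lost in 10 of those 12 fits, and the other 8 tested endothelial markers did not pass. No proximal tubule or leukocyte marker and no red blood cell gene passed. The part of these cells in the rises above was not tested.

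**Figure D4:**
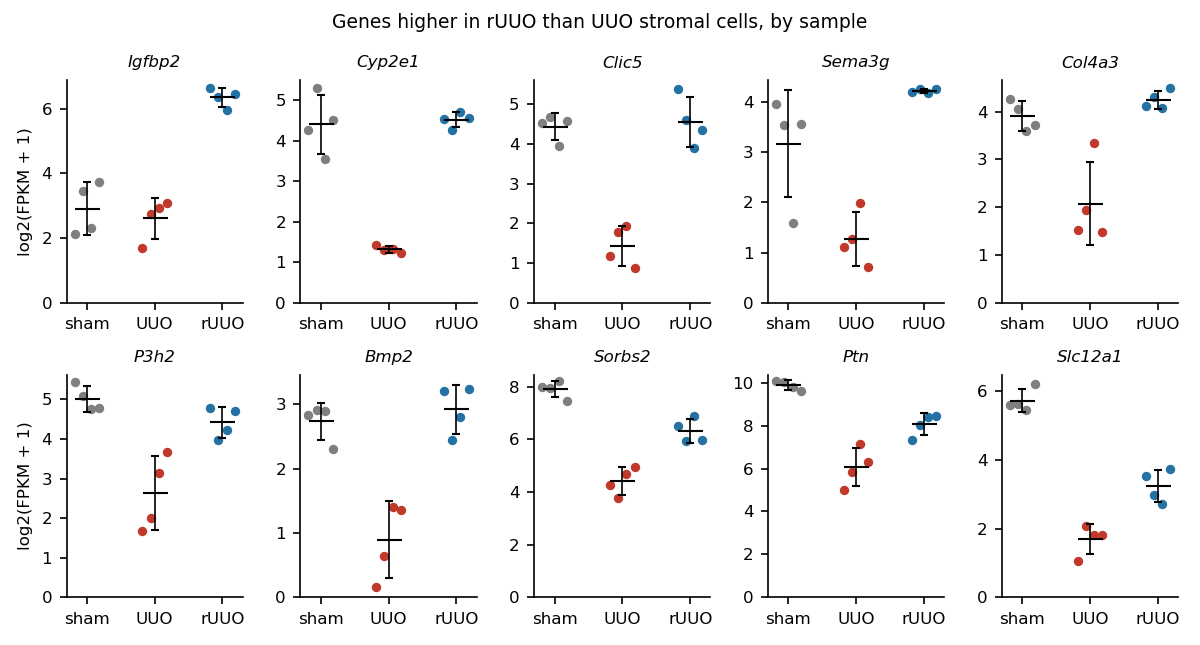
Each panel shows 1 gene that rose, on a linear axis of log2(FPKM + 1), for the 4 sham, 4 UUO and 4 rUUO stromal samples, with points for samples and a bar for mean ± SD. Igfbp2 in rUUO, at 60.6 to 97.9 FPKM, lies above both UUO and sham, whereas Ptn and Slc12a1, a marker of the loop of Henle, lie between UUO and sham.

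To see which of these changes were particular to stromal cells, the change from UUO to rUUO was compared with the mean of the same change in sorted PT cells (4 UUO, 3 rUUO), macrophages (4 UUO, 3 rUUO) and endothelial cells (3 UUO, 4 rUUO). Over all genes 659 passed (4.70%), 496 with a more positive and 163 with a more negative stromal change. This split too moved with the scaling, to 266 and 166 without mitochondrial genes and to 213 and 230 with quantile normalisation. Of the 328 fibrotic genes, 39 had a more negative and 12 a more positive stromal change. Of the 9 fibrillar collagens 5 passed, all more negative in stroma. They did not include Col1a1, Col1a2 or Col3a1, whose stromal change minus the mean of the others was −1.08 (limma adjusted p = 0.105), −1.12 (limma adjusted p = 0.0942) and −0.78 (limma adjusted p = 0.311).

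Col3a1 changed by −1.31 in stroma, and by −0.26 in PT cells, −0.64 in macrophages and −0.68 in endothelial cells on the log2 scale. Cthrc1 had a difference between populations of −4.17 (limma adjusted p = 2.82e-06), Nov of −3.52 (limma adjusted p = 1.14e-09), P4ha3 of −3.04 (limma adjusted p = 8.75e-08) and Lox of −2.30 (limma adjusted p = 0.000425). The falls of these genes of the secreted matrix and its crosslinking were larger in stromal cells than in the mean of the other populations. Apart from Lox, which was in the fixed set, they were named for their stromal fall, which is part of this difference. Nothing is therefore read from their passing, and whether the other populations express them enough to show a fall was not tested. Among the rises, Lama5 differed by 1.97 (limma adjusted p = 0.00709), Igfbp2 by 2.98 (limma adjusted p = 2.35e-05) and Bmp2 by 1.95 (limma adjusted p = 0.00154). These too were named for their stromal change. Igfbp2 changed by 3.74 in stroma and by 2.65 in endothelial cells, but by −0.36 in PT cells and −0.02 in macrophages. Its rise was thus not particular to stroma. Acta2, with a difference between populations of −1.34 (limma adjusted p = 0.0467), passed this test although its own stromal change did not pass. It changed by 0.45 in PT cells, 0.35 in macrophages and 1.42 in endothelial cells. Without UUO sample 1 the count over all genes was 416, and without UUO sample 3 it was 905.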

How the data were processed

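RNA of sorted mouse kidney cells was amplified by the Ovation kit (System V2), and reads of 150 bases were made, per the study's methods. A single deposited table gives FPKM, as the authors computed them, for 53465 genes of the mm10 build (GRCm38), without counts. Bowtie2, RSEM, FastQC and DESeq2 are named in the submitters' processing notes, with no versions or roles. Rounded FPKM hold no depth in absolute terms, so no counting intervals are given, and amplification from little RNA adds noise to low genes. Of 46 columns of values, 44 entered the tests. A pair of columns shares 1 name, that of an endothelial UUO sample, and these 2 columns were left out. The PT column titled LTL+ SHAM UUO 2 names both operations. It was taken as a PT UUO sample by its treatment label.

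The 14033 genes that averaged 1 FPKM or more across the 12 stromal samples were tested on log2(FPKM + 1) with limma 3.58.1 in R 4.3.3 (lmFit, eBayes with an intensity trend), where 4 sham, 4 UUO and 4 rUUO samples shared 1 estimate of the spread. P-values were adjusted by Benjamini-Hochberg over all genes, with a threshold of 0.05. The difference between populations was fitted over the 44 samples, taken as independent. The mitochondrial share was tested by exact permutation. The script was tested on simulated data. Alternatives were a pseudocount of 0.1, no filter, a minimum of 5 FPKM, TPM, scaling without mitochondrial genes, quantile normalisation, no trend, a block for the replicate number, all 4 populations in the fit, only the 8 UUO and rUUO samples, a fold change above 1.5, and leaving out each sample.

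The members, gene lists and tests were chosen with earlier results of these data known. Genes named were a fixed set (Pdgfrb, Col1a2, Dcn, Col1a1, Col3a1, Fn1, Acta2, Tagln, Tgfb1, Timp1, Mmp2, Lox and Postn among them), up to 3 falls and 3 rises past the threshold in each list, the 5 largest falls and rises of all genes whose groups do not overlap (symbols starting with Gm or AC or ending in Rik left out), and markers past the threshold. A few genes that these rules select are not reported here. Other list members named beside them were chosen after their values were seen. Promoters are RefSeq sequences of GRCm38.p6. Of the gene identifiers, 53274 were found in GENCODE M21.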

Additional observations from a re-analysis of the deposited data

Results flagged for a closer look

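In 13 of 210 groups of 4 stromal samples checked among the named genes, 1 sample stood further from the rest than Dixon's 95% critical value allows, and chance alone does so in about 5% of groups. Among UUO samples, sample 4 was set apart for Fn1, the provisional matrix glycoprotein (1275 FPKM against 992 to 1006 FPKM), for Nid1, the laminin linker (950.3 FPKM against 616 to 627 FPKM), and for Col11a1, the type XI collagen chain (8.65 FPKM against 63.2 to 67.5 FPKM). UUO sample 3 was set apart for the collagen chain Col1a2 (2207 FPKM against 3035 to 3162 FPKM) and the crosslinking enzyme Lox (222 FPKM against 518 to 579 FPKM). Without UUO sample 3 the differences of Col1a2 and Lox were −1.26 and −2.64 in place of −1.14 and −2.32.

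Among rUUO samples, sample 4 was the low one for Acta2, smooth muscle actin (226 FPKM against 262 to 266 FPKM), and for the laminin chain Lama4 (12.9 FPKM against 23.9 to 24.8 FPKM). Sample 6 was the high one for Nid1 (443 FPKM against 372 to 383 FPKM) and for the tubular cadherin Cdh16 (39 FPKM against 21.4 to 22.9 FPKM). In sham, sample 3 was high for the fibroblast protein Cthrc1 (8.07 FPKM against 0.32 to 0.8 FPKM), sample 4 was low for Lrrc32 (12.3 FPKM against 19.2 to 20.8 FPKM) and Bmp2 (3.95 FPKM against 6.11 to 6.54 FPKM), and sample 1 was high for the endothelial gene Emcn (46.2 FPKM against 36.1 to 37.2 FPKM).

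For 41 of 70 named genes the change from UUO to rUUO in stromal cells differed from the mean of the same change in PT cells, macrophages and endothelial cells past the threshold, against 4.70% of all genes. Most of the named genes were chosen by their stromal change, which is part of this difference, so nothing is read from this count. The values are this difference on the log2 scale and its limma adjusted p. More negative in stroma were, of the collagens, Col11a1 (−2.39, 0.000146), Col24a1 (−1.79, 0.000119), Col5a2 (−1.70, 0.000175), Col6a3 (−1.59, 0.00337) and Col8a1 (−1.17, 0.0299). Of the processing, crosslinking and basement membrane genes they were P4ha3 (−3.04, 8.75e-08), Lox (−2.30, 0.000425) and Lama4 (−1.21, 0.0399), and of the elastic fibre Fbln2 (−1.78, 0.0184), Fbn1 (−1.6, 0.00212) and Mfap5 (−1.5, 0.0149). Matricellular and hyaluronan genes with a more negative stromal change were Cthrc1 (−4.17, 2.82e-06), Nov (−3.52, 1.14e-09), Wisp2 (−2.36, 9.11e-07), Postn (−1.85, 0.00332), Has2 (−1.78, 2.78e-06) and Vcan (−1.43, 0.045). Contractile, signalling and protease genes were Actg2 (−3.17, 0.000662), Acta2 (−1.34, 0.0467), Fstl1 (−1.57, 0.000935), Sfrp1 (−1.5, 0.0263), Adam12 (−1.80, 0.000125), Adam19 (−1.30, 0.00615) and Adamts12 (−0.96, 0.0386), and Ccnb2 (−2.14, 0.00932), Kdelr2 (−0.78, 0.0143) and H19 (−4.63, 1.91e-05) were more negative as well.

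More positive in stroma were the basement membrane, matrix and adhesion genes Smoc1 (1.53, 0.00012), Lama5 (1.97, 0.00709), Tgfbi (1.76, 0.000662), Itga3 (1.6, 0.032) and Sorbs2 (1.54, 0.0101). The ligand and cell cycle genes Bmp2 (1.95, 0.00154) and Ccnd1 (0.94, 0.0172) were also more positive, as were the genes with the largest rises, Igfbp2 (2.98, 2.35e-05), Cst12 (3.32, 1.14e-09), Cyp2e1 (3.38, 2.11e-05), Clic5 (2.41, 8.05e-05) and Sema3g (2.68, 0.000388). The markers Cdh16 (1.53, 0.0308) and Emcn (1.08, 0.0271) of tubular and endothelial cells were among them. Igfbp2 changed by 2.65 in endothelial cells, against 3.74 in stroma, −0.36 in PT cells and −0.02 in macrophages. Tgfbi changed by −1.55 in endothelial cells, opposite to its stromal rise of 1.30. In the case of Acta2, smooth muscle actin, the stromal change itself had not passed.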

How the results depend on the processing

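None of the 80 called genes followed by name changed sign in any alternative, while genes looked up after their values were seen were not followed. Of those not called, Timp1 ranged from −0.800 (without UUO sample 3) to 0.073 (without UUO sample 1) and Dcn from −0.087 (without UUO sample 3) to 0.393 (without UUO sample 4) when 1 sample was left out. The 585 genes called between rUUO and UUO became 200 without a filter on low values, 361 with quantile normalisation, 1231 with all 4 populations in the fit and 231 with only the 8 UUO and rUUO samples, and ranged from 289 (without rUUO sample 2) to 752 (without UUO sample 3) when 1 sample was left out. With a pseudocount of 0.1, a minimum of 5 FPKM, TPM, scaling without mitochondrial genes, no intensity trend or a fold change above 1.5 they stayed between 466 and 582. The 62 fibrotic calls became 26 without a filter and 39 without the intensity trend, and ranged from 33 (without rUUO sample 6) to 76 (without UUO sample 3). The 659 genes whose change differed between populations became 432 without mitochondrial genes and 374 with a pseudocount of 0.1, and ranged from 416 (without UUO sample 1) to 905 (without UUO sample 3). The cause was not tested.

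Stromal UUO and rUUO samples with the same replicate number did not deviate together (correlations of −0.0271, 0.0198 and −0.00633), so no pairing between these groups was seen. Whether a number stands for the same mouse across the sorted populations was not tested. With surgery and replicate number together taken as the mouse, 757 genes passed in the comparison of populations, in place of 659. With the replicate block, which costs degrees of freedom, 116 genes passed between rUUO and UUO, 18 of them fibrotic, and 1574 between rUUO and sham in place of 2407. Of 80 called genes followed by name, 25 were called in every alternative and every fit that left out a sample, among them Postn, Col5a2, P4ha3, Mfap5, Eln, Cthrc1, Nov, Has2, Actg2, Fstl1, Sfrp1, Adam12, Col4a3, H19 and Igfbp2, and 41 in every fit that left out a sample. Calls were kept for 75 with a pseudocount of 0.1, 69 with TPM, 61 with quantile normalisation, 51 without the trend, 36 without a filter and 26 with the replicate block. The table holds no counts, so what depth limits cannot be stated for single genes.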

Other observations

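After the values were seen, 23 imprinted genes, many of which are active in fetal growth and silenced afterwards, were looked up because H19 had the largest fall on the log2(FPKM + 1) scale among genes whose groups did not overlap, predicted genes left out. Of these, 12 fell and 1 rose (Airn), against 1.22% lower and 2.95% higher of all genes, and their median difference was −1.14, against 0.19. As the set was chosen on these samples it was not tested. Igf2, the growth factor next to H19, was 33.5, 82.9, 30.01 and 18 FPKM in UUO samples 1 to 4 and 5.13, 6.57, 6.27 and 0.11 FPKM in rUUO samples 1, 2, 4 and 6. Grb10, which dampens insulin and IGF receptor signalling, was 133, 119.7, 111 and 123 FPKM in UUO samples 1 to 4 and 61.2, 44.6, 53.6 and 50.4 FPKM in rUUO samples 1, 2, 4 and 6, and Rian, a non-coding RNA of the Dlk1 and Meg3 locus, was 103, 113, 38.4 and 89.97 FPKM in UUO samples 1 to 4 and 24.4, 18.4, 12.4 and 24.9 FPKM in rUUO samples 1, 2, 4 and 6. For these genes every rUUO sample lay below every UUO sample. Not all members moved, and Cdkn1c, a cell cycle inhibitor, was 54.4, 41.2, 69.3 and 65 FPKM in UUO samples 1 to 4 and 50.2, 28.8, 128 and 22.1 FPKM in rUUO samples 1, 2, 4 and 6, with overlapping groups.

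Several genes best known from epithelial cells rose with the basement membrane chains. Pax8, a transcription factor of the nephron lineage, was 2.87, 6.87, 6.33 and 5.45 FPKM in UUO samples 1 to 4 and 35, 48.2, 46 and 38.2 FPKM in rUUO samples 1, 2, 4 and 6, against a sham range of 19.99 to 57 FPKM. Cldn1, a tight junction protein of parietal epithelium, was 11, 16.4, 12.3 and 9.74 FPKM in UUO samples 1 to 4 and 79.5, 64.9, 59.8 and 87.5 FPKM in rUUO samples 1, 2, 4 and 6, above its sham range of 19.9 to 33.3 FPKM. Podxl, a sialomucin of podocytes and vessels, was 5.94, 4.43, 5.79 and 2.79 FPKM in UUO samples 1 to 4 and 38.8, 34.3, 19.8 and 28.6 FPKM in rUUO samples 1, 2, 4 and 6. All rUUO samples were above all UUO samples for these genes, and they too were chosen after their values were seen. The summed markers of other nephron segments were 46.8 to 90.7 FPKM in UUO and 91.3 to 149.6 FPKM in rUUO, and their part in these rises was not tested.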
